A study of Mus musculus with 2 samples.

Results

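The set described here holds 36 mouse genes of glycolysis and of the response to low oxygen, taken by name from a fixed list and followed through the cell types of the fetal femur. The list was chosen with earlier results of these data known. Shares of the set given beside those of all genes are therefore descriptions and not independent support. All 36 were listed in both count tables, out of 22652 genes in all. The genes fall into 3 glucose and lactate transporters, 15 enzymes from hexokinase to lactate dehydrogenase, the hypoxia-inducible factor subunits Hif1a and Epas1, and 16 genes known as sensors or targets of these factors. The annotation (GENCODE, build GRCm38) places them on 15 chromosomes, and all 36 are protein coding. The cells came from whole femurs of embryos at E18.5. The femurs were crushed and digested with collagenase, and lineage-committed blood cells were depleted, so that haematopoietic stem and progenitor cells (HSPCs) and the cells around them remained. The study's methods name C57BL/6 mice for wild-type work and a background that was predominantly C57BL/6 for all animals. There was 1 single-cell library labelled WT and 1 labelled Bmx-CreER Wls. In the latter, per the study's methods, a tamoxifen-inducible Cre driven by Bmx, a gene of arterial endothelial cells, acts on floxed Wls, which encodes the carrier that Wnt proteins need to leave the cell, and tamoxifen was given to the pregnant dam. The number of embryos pooled in each library is not given in the sources used here. With 1 library per condition, cells were not treated as replicates: no test was made, every interval below is a 95% interval that covers counting error only, and a difference between the libraries cannot be told apart from a difference between any other 2 preparations.

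Glycolysis splits glucose into pyruvate in the cytosol, and lactate dehydrogenase turns pyruvate into lactate, which leaves the cell through monocarboxylate transporters. When oxygen is low, the prolyl hydroxylases encoded by Egln genes no longer mark the hypoxia-inducible factors for degradation, and the factors bind short motifs near genes for glucose uptake, glycolysis, pH control, collagen hydroxylation and the removal of mitochondria. Growth plate cartilage has no blood vessels and chondrocytes in it are known to depend on HIF-1α and on glycolysis, whereas endothelial cells line the vessels themselves.

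The core of the motif that the factors bind is written ACGTG or GCGTG, and these letters were looked for in the RefSeq windows around annotated gene starts (GRCm38.p6, 250 bases before and 50 bases from the start). 32 of the 36 genes had a window and 29 of the 32 held ACGTG or GCGTG on either strand, against 46.7% of the 27025 genes with a window. ACGTG alone was in the windows of 23 of the 32 genes and in those of 21.8% of all genes. A gene can have several windows. Counted by window, 36 of the 46 windows of the set (78.3%) held either motif, against 43.8% of all 32851 windows. For ACGTG alone it was 25 of the 46 against 19.6%. CACGT and CACGC are the same motifs read on the opposite strand, and CACGTG holds ACGTG on both strands at once. A match describes the letters only. The 250 bases before the start are given for the 6 genes on which the results below turn most, 5′ to 3′ on the strand of the gene, with the matches in capitals. Car9 (chr4:43506776-43507025, plus strand) and Egln3 (chr12:54203875-54204124, minus strand) were nearly absent from 1 chondrocyte cluster, Bnip3 (chr7:138909507-138909756, minus strand) and P4ha2 (chr11:54100674-54100923, plus strand) were high there, Ldha (chr7:46845554-46845803, plus strand) stands for the enzymes, and Pgk1 (chrX:106186850-106187099, plus strand) differed between libraries together with a copy elsewhere in the genome.
Car9: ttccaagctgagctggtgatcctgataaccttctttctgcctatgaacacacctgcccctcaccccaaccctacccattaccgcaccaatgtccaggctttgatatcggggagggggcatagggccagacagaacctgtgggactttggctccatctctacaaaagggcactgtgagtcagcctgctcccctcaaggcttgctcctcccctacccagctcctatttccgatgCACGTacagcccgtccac
Egln3: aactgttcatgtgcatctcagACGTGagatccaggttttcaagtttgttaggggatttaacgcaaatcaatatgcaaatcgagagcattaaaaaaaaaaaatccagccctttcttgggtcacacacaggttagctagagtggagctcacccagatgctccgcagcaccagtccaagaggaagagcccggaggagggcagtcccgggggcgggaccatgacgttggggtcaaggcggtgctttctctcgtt
Bnip3: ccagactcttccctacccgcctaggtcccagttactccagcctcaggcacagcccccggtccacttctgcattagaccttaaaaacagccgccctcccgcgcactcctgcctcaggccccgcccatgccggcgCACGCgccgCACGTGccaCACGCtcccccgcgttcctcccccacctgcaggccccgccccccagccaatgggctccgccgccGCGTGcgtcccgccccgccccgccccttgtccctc
P4ha2: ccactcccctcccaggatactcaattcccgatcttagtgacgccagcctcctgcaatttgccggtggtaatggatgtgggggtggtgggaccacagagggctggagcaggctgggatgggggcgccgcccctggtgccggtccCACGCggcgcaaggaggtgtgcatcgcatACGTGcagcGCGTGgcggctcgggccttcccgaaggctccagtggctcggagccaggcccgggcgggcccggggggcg
Ldha: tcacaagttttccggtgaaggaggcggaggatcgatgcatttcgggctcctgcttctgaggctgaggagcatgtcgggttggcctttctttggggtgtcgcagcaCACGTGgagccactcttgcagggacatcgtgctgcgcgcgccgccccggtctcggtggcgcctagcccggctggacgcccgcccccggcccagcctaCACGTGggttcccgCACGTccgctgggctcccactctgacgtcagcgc
Pgk1: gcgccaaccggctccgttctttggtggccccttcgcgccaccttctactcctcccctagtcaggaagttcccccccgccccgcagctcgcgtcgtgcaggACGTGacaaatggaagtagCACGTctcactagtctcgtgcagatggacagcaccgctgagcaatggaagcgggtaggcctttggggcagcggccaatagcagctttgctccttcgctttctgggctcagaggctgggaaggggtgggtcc
The stretches of Car9 and Egln3 held 1 match each, that of Pgk1 held 2, that of P4ha2 held 3, and those of Bnip3 and Ldha held 5 each, counting overlapping matches on both strands. Ldha has another annotated start, and the 250 bases before it (chr7:46846832-46847081), which are not printed, held 1 match, of GCGTG. The stretch of Car12, which is not printed, held 0.

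The WT table held 5998 barcodes and 22708005 unique molecular identifiers (UMIs), each standing for 1 captured RNA molecule, and the Bmx-CreER Wls table held 6825 barcodes and 24704991 UMIs. After the study's filters 5736 and 6620 cells were kept, with medians of 3128 and 3067 UMIs, and 48 barcodes were shared by kept cells of both libraries. Clustering without any of the 36 genes gave 16 clusters. 5 of them were chondrocyte-like: growth plate (led by Epyc and Matn1), hypertrophic (Col10a1, Ihh), superficial (Prg4), mitotic, and a Wif1/Tnn-high cluster. The 11 others were endothelial-like, HSPC-like, osteolineage-like, osteoclast-like, mural-like, stromal-like and neutrophil/macrophage-like clusters, a mixed cluster led by Actc1, Afp and Myog, and 3 clusters called by their leading genes. Levels are UMIs summed over the cells of a cluster and given per 1000000 UMIs of that cluster (CPM), so they are shares of captured RNA and are compared between clusters, not between genes. Fewer cells in a given state and less RNA per cell cannot be told apart in such sums. Col2a1, the main cartilage collagen, read 90306 CPM in the growth plate-like cluster of the WT library and 93538 in that of the Bmx-CreER Wls library, but also 547 and 1371 in HSPC-like cells, which should lack it. Low values of a gene are to be read against such counts.

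In the WT library 20 of the 36 genes had their highest level in a chondrocyte-like cluster, where 12.3% of 12408 genes with at least 50 UMIs did. In the Bmx-CreER Wls library 18 did, against 1496 of 12498 genes, or 12%, and these 18 were among the 20. The growth plate-like cluster was the highest for 15 genes in WT and for 14 in Bmx-CreER Wls. The interval of the highest cluster overlapped that of the next for 22 genes in WT and 25 in Bmx-CreER Wls, so that the exact rank of neighbouring clusters is often open.

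**Figure D1:**
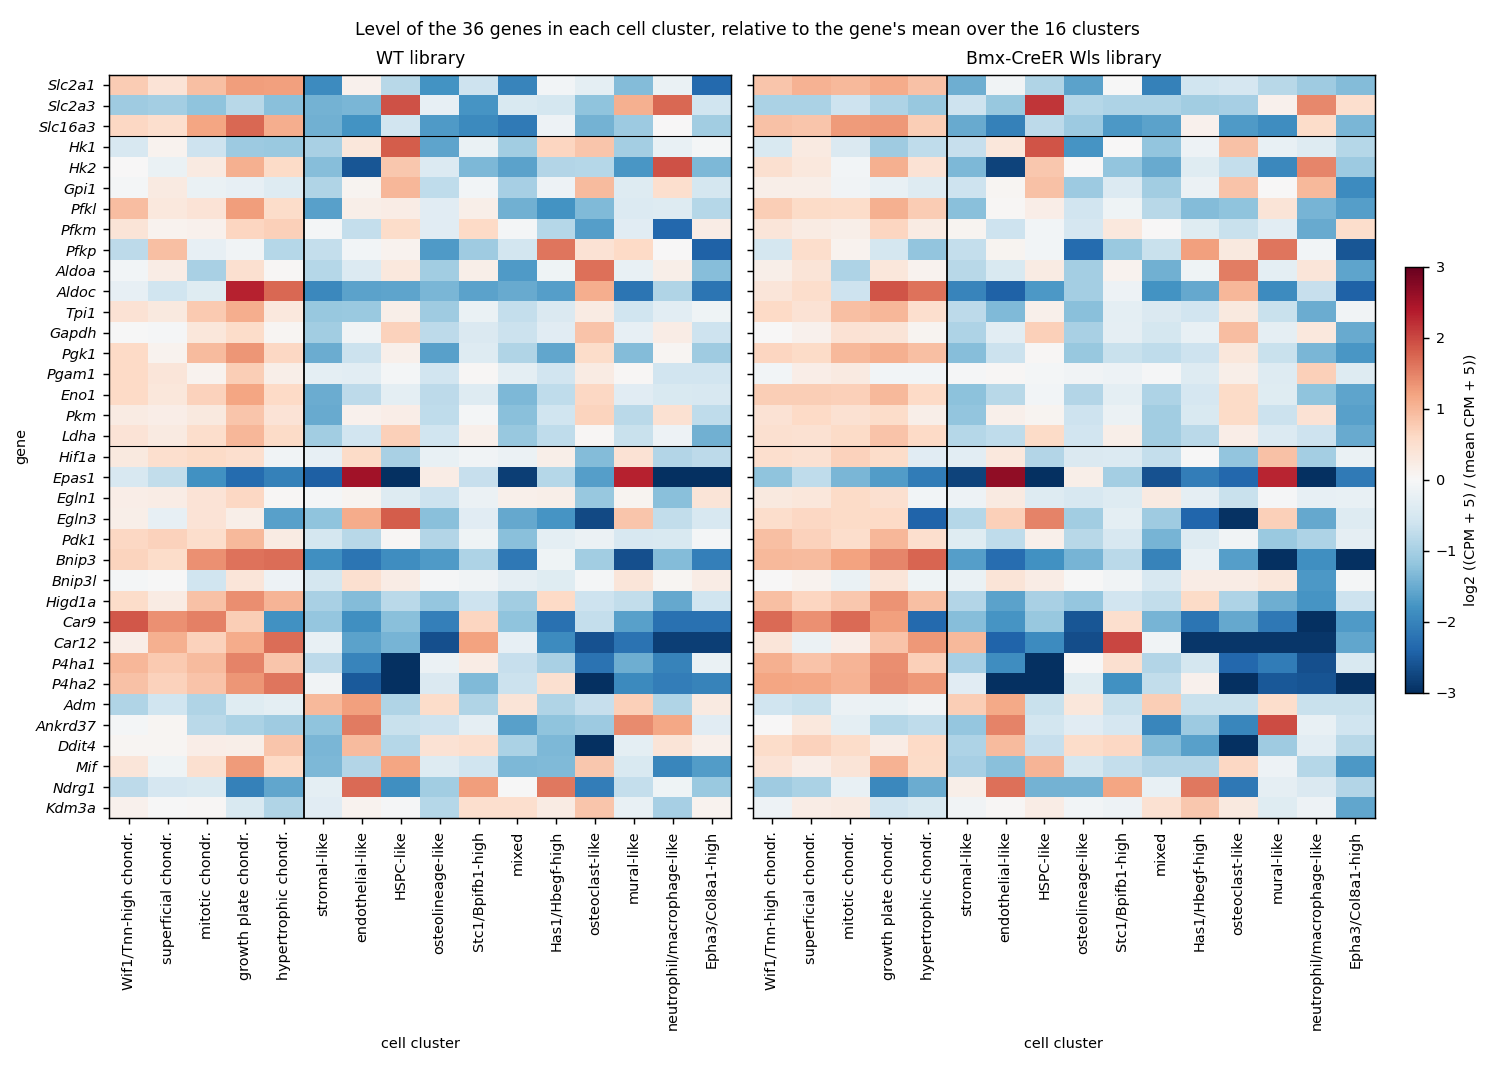
Level of each of the 36 genes (rows) in the 16 cell clusters (columns) of the WT library (left) and the Bmx-CreER Wls library (right), as log2 of the CPM plus 5 over the gene's mean CPM over clusters plus 5. The 5 columns left of the vertical line are the chondrocyte-like clusters, in which most rows are red, while Slc2a3, Hk1, Epas1, Ndrg1 and Ankrd37 are red elsewhere in both libraries.

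With all chondrocyte-like cells summed against all other cells, 22 of the 36 genes were at least 1.5-fold higher in chondrocyte-like cells of the WT library, where 11.3% of 12408 genes with at least 50 UMIs were, and 7 were at least 1.5-fold lower, where 45.0% of all genes were. In the Bmx-CreER Wls library 21 of 35 genes with at least 50 UMIs were higher, against 10.1% of 12498 genes, and 5 were lower, against 42.3%. The median ratio of the genes was 1.65 in WT and 1.62 in Bmx-CreER Wls, and that of all genes was 0.708 and 0.730. Of the 35 genes counted in both libraries, 34 lay on the same side of 1. The summed level of the 15 enzymes was 3741 CPM in chondrocyte-like cells and 2630 CPM in other cells of the WT library, a ratio of 1.42 (1.40 to 1.44), and 3942 and 2718 CPM in the Bmx-CreER Wls library, a ratio of 1.45 (1.43 to 1.47). The 16 hypoxia response genes summed to 2632 against 891 CPM in WT (ratio 2.95, 2.89 to 3.02) and 2805 against 1002 CPM in Bmx-CreER Wls (ratio 2.80, 2.74 to 2.86), sums to which P4ha1, Bnip3 and P4ha2 gave the most. Gene by gene they did not stand further apart than the enzymes, with median ratios of 1.58 in WT and 1.61 in Bmx-CreER Wls against 1.71 and 1.68, and with 4 of 16 at least 1.5-fold lower in WT against 1 of 15. Cartilage was not the only place with much glycolytic RNA: the 15 enzymes summed to 5426 CPM in osteoclast-like cells and 3917 CPM in HSPC-like cells of WT, against 4916 CPM in growth plate-like and 1308 CPM in stromal-like cells. In the Bmx-CreER Wls library the same sums were 5707, 4083, 4652 and 1584 CPM. Aldoa alone gave 2680 of the 5426 CPM in osteoclast-like cells of WT, against 1180 of the 4916 CPM in growth plate-like cells. In WT the higher sum of osteoclast-like cells thus rested on Aldoa. It gave 2820 of the 5707 CPM in osteoclast-like cells of Bmx-CreER Wls.

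**Figure D2:**
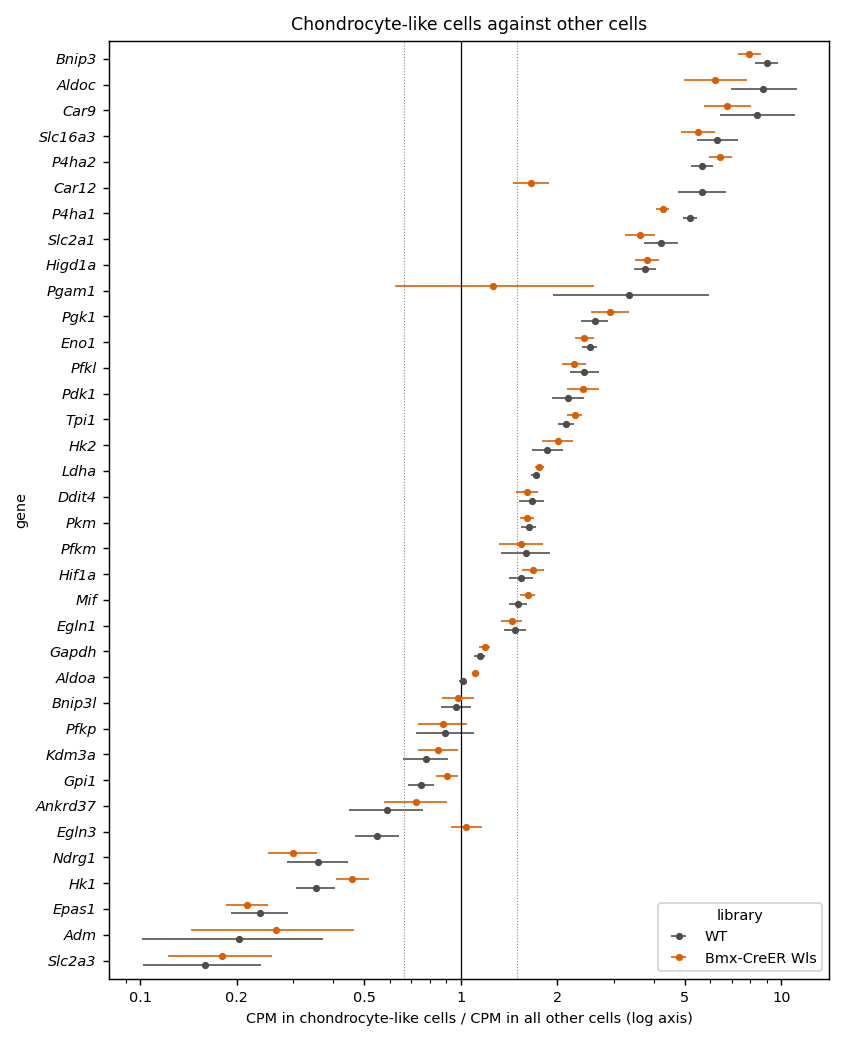
Ratio of the CPM in chondrocyte-like cells to the CPM in all other cells for each gene, on a log axis, with 95% counting intervals, for the WT library (grey) and the Bmx-CreER Wls library (orange). Dotted lines mark 1.5-fold in either direction. Bnip3, Aldoc and Car9 head the list, Slc2a3, Adm and Epas1 close it, and Car12, Pgam1 and Egln3 are the genes whose points lie furthest apart between libraries.

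Among the transporters, Slc2a1 (GLUT1, the widespread glucose carrier) read 129.5 CPM in growth plate-like and 127 in hypertrophic-like cells of WT, against 56.1 in endothelial-like and 10.2 in stromal-like cells. Those of the Bmx-CreER Wls library were 149, 126, 60.2 and 20.4 CPM. The ratio of chondrocyte-like to other cells was 4.2 (3.71 to 4.75) in WT and 3.61 (3.24 to 4.03) in Bmx-CreER Wls. Slc16a3, the lactate exporter MCT4, had ratios of 6.31 (5.45 to 7.32) and 5.48 (4.84 to 6.21), with 154 and 176 CPM in growth plate-like cells. Slc2a3 (GLUT3, a carrier with high affinity for glucose) was the reverse: it read 59.1 CPM in HSPC-like cells of WT and 59.1 in those of Bmx-CreER Wls, and no more than 4.58 CPM in any chondrocyte-like cluster of either library. In the small neutrophil/macrophage-like cluster Slc2a3 read 51.1 (20.5 to 105) and 34.6 (12.7 to 75.4) CPM, intervals that overlapped those of HSPC-like cells. GLUT1 was thus highest in cartilage and GLUT3 in blood cells.

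Of the 15 enzymes, 10 were at least 1.5-fold higher in chondrocyte-like cells of WT and 9 of 14 were in Bmx-CreER Wls, while Hk1 alone was at least 1.5-fold lower in either. The step at which hexokinase commits glucose to the cell split by isoform. Hk2 read 119 CPM in growth plate-like and 5.01 in endothelial-like cells of WT, and 122 and 3.83 in Bmx-CreER Wls, with its highest values in the small neutrophil/macrophage-like cluster (219 [148 to 313] and 162 [107 to 234] CPM). Hk1 read 195 and 188 CPM in HSPC-like cells but 21.5 and 19.6 in growth plate-like cells, which makes the ratio of chondrocyte-like to other cells 0.353 (0.306 to 0.405) in WT and 0.459 (0.407 to 0.516) in Bmx-CreER Wls. Among the phosphofructokinases, which catalyse the main control step, the liver type Pfkl was higher in chondrocyte-like cells (ratios 2.42 [2.19 to 2.69] and 2.25 [2.06 to 2.45]), the muscle type Pfkm less so (1.59 [1.34 to 1.89] and 1.54 [1.31 to 1.8]), and the platelet type Pfkp not (0.894 [0.726 to 1.1] and 0.878 [0.735 to 1.05]). The aldolases differed most. Aldoc read 109.8 CPM in growth plate-like and 71.4 in hypertrophic-like cells of WT, 93.7 and 78.1 in those of Bmx-CreER Wls, and at most 33.4 CPM in any other chondrocyte-like cluster of either library. Outside cartilage only osteoclast-like cells had a level of that order, at 43.9 CPM in WT and 48 in Bmx-CreER Wls. Aldoa was nearly level, with ratios of 1.02 (0.989 to 1.05) and 1.11 (1.08 to 1.14), and was highest in osteoclast-like cells, which dissolve bone, at 2680.5 and 2819.6 CPM.

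Of the 6 enzymes from Gapdh to Ldha, 5 were at least 1.5-fold higher in chondrocyte-like cells of WT, and 4 of the 5 with enough UMIs were in Bmx-CreER Wls. Tpi1, which interconverts the triose phosphates, read 436 CPM in growth plate-like and 88.6 in stromal-like cells of WT, and its ratios were 2.13 (2.01 to 2.25) in WT and 2.26 (2.15 to 2.39) in Bmx-CreER Wls. Ldha, which makes lactate, read 1026 and 998 CPM in growth plate-like cells, 839.6 and 821 in HSPC-like cells and 339.9 and 318 in endothelial-like cells, and its ratios were 1.71 (1.65 to 1.77) and 1.76 (1.7 to 1.82). Pkm, the last step to pyruvate, had ratios of 1.63 (1.54 to 1.72) and 1.61 (1.53 to 1.69). Gapdh, often taken as a constant reference, was 581 CPM in growth plate-like and 188 in stromal-like cells of WT, with ratios of 1.14 (1.1 to 1.19) and 1.19 (1.14 to 1.23). Gpi1, the isomerase after hexokinase, had ratios below 1, at 0.749 (0.683 to 0.821) and 0.904 (0.835 to 0.979). Both lay above the medians of 0.708 and 0.730 over all genes. It read highest in HSPC-like cells of WT at 186 CPM, with an interval that overlapped that of osteoclast-like cells. In Bmx-CreER Wls it read highest in neutrophil/macrophage-like cells at 202 CPM, with an interval that overlapped that of HSPC-like cells. Pgk1 (ratios 2.61 [2.37 to 2.88] and 2.92 [2.55 to 3.35]) and Eno1 (2.52 [2.39 to 2.66] and 2.43 [2.27 to 2.59]) are uncertain in level because near-identical copies can share their reads, as shown further on. Pgam1 had 63 UMIs in the WT library and 37 in the Bmx-CreER Wls library, too few for a pattern over clusters.

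The factor subunits differed in how widely they were found. Hif1a was spread widely, from 37 CPM in osteoclast-like cells of WT to 149 in endothelial-like cells and 149 in mitotic chondrocyte-like cells, and was highest in mural-like cells of Bmx-CreER Wls at 188 CPM, with ratios of 1.54 (1.42 to 1.68) and 1.68 (1.55 to 1.82). Epas1, which encodes HIF-2α, read 279.9 CPM in endothelial-like and 242 in mural-like cells of WT, 349 and 269 in those of Bmx-CreER Wls, and 5.03 and 12.5 in growth plate-like cells. The intervals of the vessel clusters did not overlap those of any other cluster in either library. Within the endothelial-like cells the arterial-like subcluster stood out, at 780.2 CPM in WT and 889.6 in Bmx-CreER Wls, against 205 and 245 in the sinusoidal-like subcluster. Of the oxygen-sensing prolyl hydroxylases, Egln1 (PHD2) leaned to cartilage by less than 1.5-fold, with 175 CPM in growth plate-like and 119.7 in endothelial-like cells of WT and ratios of 1.48 (1.36 to 1.6) and 1.44 (1.34 to 1.55). Egln3 (PHD3) was highest in HSPC-like cells of both libraries, at 110.3 and 129 CPM, and is known as a target of the factors that it acts on. Its ratio of chondrocyte-like to other cells was 0.548 (0.466 to 0.643) in WT and 1.04 (0.932 to 1.16) in Bmx-CreER Wls.

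Of the targets that act on mitochondria, Bnip3, which marks mitochondria for removal, read 535 CPM in growth plate-like and 546 in hypertrophic-like cells of WT, 33 in endothelial-like and 42.6 in HSPC-like cells. In the Bmx-CreER Wls library it read 499.9, 612, 32.8 and 46.9 CPM, and the ratios of chondrocyte-like to other cells were 8.99 (8.29 to 9.77) and 7.93 (7.31 to 8.63). Its relative Bnip3l showed no such contrast, with ratios of 0.965 (0.864 to 1.08) and 0.98 (0.876 to 1.1). Higd1a, a small protein of the respiratory chain, had ratios of 3.75 (3.46 to 4.07) and 3.81 (3.5 to 4.16), and Pdk1, the kinase that keeps pyruvate out of the citrate cycle, had 2.16 (1.93 to 2.43) and 2.4 (2.14 to 2.7). P4ha1 and P4ha2, the catalytic subunits that hydroxylate prolines of collagen, had ratios of 5.18 (4.94 to 5.44) and 5.66 (5.23 to 6.13) in WT and of 4.25 (4.06 to 4.46) and 6.45 (5.95 to 6.99) in Bmx-CreER Wls. P4ha1 read 1109.9 CPM in growth plate-like, 347 in osteolineage-like and 35.1 in HSPC-like cells of WT, and 1018, 387 and 37.7 in those of Bmx-CreER Wls. In the osteolineage-like cells both subunits were higher in the subcluster with high Ibsp and Ifitm5, genes of bone matrix, than in the Cxcl12-rich subcluster: 527 against 143 CPM of P4ha1 and 173 against 24.9 CPM of P4ha2 in WT, and 564 against 152 and 189.9 against 31.1 CPM in Bmx-CreER Wls.

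The carbonic anhydrases, enzymes at the cell surface that buffer acid, had ratios of 8.36 (6.43 to 11) and 6.78 (5.73 to 8.05) for Car9 and of 5.64 (4.75 to 6.71) and 1.65 (1.45 to 1.88) for Car12. Car12 read highest in hypertrophic-like cells of WT, at 106 (93.7 to 120.5) CPM, an interval that overlapped that of the Stc1/Bpifb1-high cluster. In Bmx-CreER Wls Car12 was highest in the Stc1/Bpifb1-high cluster, at 148 (126 to 172) CPM against 88.1 (76.8 to 100.5) in hypertrophic-like cells. That cluster was counted among the other cells in these ratios, but it held cartilage RNA. Its 12 chondrocyte markers summed to 16744.5 CPM in WT and 22543.7 in Bmx-CreER Wls, against 2910 and 5020 in stromal-like and 42580 and 58134 in superficial chondrocyte-like cells. In WT the Stc1/Bpifb1-high cluster read 75.8 CPM of Car12, and stromal-like cells read 24.9 and 69.5. Of the other targets, Mif (a cytokine, ratios 1.5 [1.41 to 1.6] and 1.62 [1.53 to 1.71]) and Ddit4 (an inhibitor of mTOR signalling, 1.66 [1.52 to 1.82] and 1.61 [1.48 to 1.75]) leaned to cartilage, but Mif was about as high in HSPC-like cells (297 and 393 CPM) as in growth plate-like cells (318 and 401 CPM). Other targets were higher outside cartilage. Ndrg1 read 117 and 114 CPM in endothelial-like cells, 107 and 109 in the Has1/Hbegf-high cluster, with intervals that overlapped, and 4.12 and 4.91 in growth plate-like cells. Ankrd37 read 60.1 and 49.3 CPM in endothelial-like and 53.5 and 69.9 in mural-like cells, and 6.41 and 5.67 in growth plate-like cells. In the arterial-like subcluster Ddit4 was at 370.2 and 279 CPM and Ankrd37 at 135 and 75 CPM, against 193 and 191 and 23.8 and 9.8 CPM in the sinusoidal-like subcluster. Adm, which encodes the vessel-relaxing peptide adrenomedullin, was low throughout, at most 17 CPM in endothelial-like cells of WT. Kdm3a, a histone demethylase, was near even (0.777 [0.66 to 0.912] and 0.846 [0.734 to 0.976]).

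Blood progenitors divided along their lineages. Hk1 read 305 CPM in the Car1/Aqp1-high and 292 in the Rhd/Rhag-high erythroid-like subclusters of WT, against 72.7 in multipotent HSPC-like and 58.5 in neutrophil progenitor-like cells. The matching values of Bmx-CreER Wls were 358, 292, 105 and 49 CPM. Egln3 ran from 150.1 CPM in multipotent to 41.4 in Rhd/Rhag-high cells of WT and from 229 to 39.3 in those of Bmx-CreER Wls. Of the progenitor subclusters given a cell type name, the same Rhd/Rhag-high cells had the lowest Hif1a, at 16.6 and 16.8 CPM.

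Related genes outside the set did not all share the lean to cartilage. Of 19 other glycolysis and pyruvate genes with at least 50 UMIs in WT, 1 was at least 1.5-fold higher in chondrocyte-like cells and 8 were lower, with a median ratio of 0.714, near the 45.0% lower and the median of 0.708 over all genes. The highest were Pgm2, Ldhb and Pfkfb3 (ratios 2.62 [2.34 to 2.93], 1.47 [1.24 to 1.75] and 1.44 [1.17 to 1.77]) and the lowest Slc16a7, Pgm1 and Pdha1 (0.185 [0.124 to 0.267], 0.201 [0.158 to 0.253] and 0.369 [0.325 to 0.419]), the last of which feeds pyruvate into the citrate cycle. Of 36 other hypoxia genes 13 were higher and 10 lower in WT, with a median ratio of 1.10. Stc2, Plod2 and Ak4 were the highest (10.9 [8.19 to 14.6], 8.18 [7.8 to 8.58] and 6.59 [5.77 to 7.53]). Of the lowest, Mt1 and Lox had ratios of 0.0955 (0.0845 to 0.108) and 0.102 (0.09 to 0.114), and the vessel gene Edn1 had 0 UMIs in chondrocyte-like and 203 in other cells. Of 26 genes of oxidative phosphorylation and the citrate cycle, 0 were at least 1.5-fold higher and 23 were lower, with a median ratio of 0.482. Cox7a2, Cox6a1 and Ogdh came nearest to even (0.816 [0.767 to 0.868], 0.77 [0.745 to 0.795] and 0.667 [0.623 to 0.714]), and Cycs, Idh3a and Uqcrc1 were lowest (0.356 [0.31 to 0.407], 0.358 [0.317 to 0.403] and 0.368 [0.33 to 0.41]). In the Bmx-CreER Wls library the same 3 lists had 2 higher and 10 lower of 19, 13 higher and 9 lower of 36, and 0 higher and 24 lower of 26, against 10.1% higher and 42.3% lower over all genes. In WT the other glycolysis genes were thus near the background, where 11.3% of all genes were higher and 45.0% lower, and the genes of respiration were lower more often than that.

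Within cartilage, hypertrophic-like cells, which have left the cell cycle and lie next to the bone front, were compared with the 4 other chondrocyte-like clusters. In WT 2 of 33 genes with at least 50 UMIs were at least 1.5-fold higher in hypertrophic-like cells, against 10.1% of 9350 genes, and 9 were lower, against 27.0%. In Bmx-CreER Wls 3 of 33 were higher, against 11.3% of 10300 genes, and 7 were lower, against 27.8%. The counts in the lower direction were near the background, and the count of higher genes in WT ranged from 1 to 6 over other clusterings, filters and totals, but single genes stood far out. Car9 read 80.9 (67.6 to 96.1) CPM in the Wif1/Tnn-high, 55.2 (40.8 to 73) in the superficial, 62.3 (49.6 to 77.4) in the mitotic and 34.3 (27 to 43) in the growth plate-like cluster of WT, and 1.71 (0.466 to 4.38) in the hypertrophic-like cluster. The matching values of Bmx-CreER Wls were 131 (119 to 143), 103 (89.6 to 118), 129 (116 to 144), 93.3 (82.1 to 106) and 3.2 (1.38 to 6.31) CPM. The hypertrophic-like interval lay below all the others in both libraries, and the ratio to the other chondrocyte-like cells was 0.0305 (0.00827 to 0.0789) in WT and 0.0276 (0.0119 to 0.0546) in Bmx-CreER Wls. A UMI of Car9 was found in 8.89% of growth plate-like cells of WT (median 3165 UMIs per cell) but in 0.855% of hypertrophic-like cells, which were deeper (median 6568), and in 0.510% of endothelial-like cells (median 2971). Thinned to 1000 UMIs per cell the shares were 3.54% and 0.287%, and in Bmx-CreER Wls 11.9% and 0.278%.

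Egln3 behaved like Car9, with 32 (25 to 40.5) CPM in growth plate-like and 5.56 (2.96 to 9.51) in hypertrophic-like cells of WT, 67.6 (58.1 to 78.3) and 4.0 (1.92 to 7.36) in those of Bmx-CreER Wls, and ratios of 0.174 (0.0912 to 0.306) and 0.0604 (0.0288 to 0.112). Hif1a itself was lower in hypertrophic-like cells, at 90.6 and 76.9 CPM, with ratios of 0.656 (0.561 to 0.763) and 0.518 (0.444 to 0.603). Ndrg1 (0.549 [0.311 to 0.922] and 0.573 [0.345 to 0.907]), Epas1 (0.464 [0.259 to 0.782] and 0.432 [0.258 to 0.686]), Pfkp (0.475 [0.291 to 0.746] and 0.358 [0.215 to 0.565]) and Ankrd37 (0.505 [0.255 to 0.924] and 0.52 [0.289 to 0.876]) were lower in both libraries. Other targets of the same pathway were not. Car12 was the gene at least 1.5-fold higher in both libraries, with 106 CPM in hypertrophic-like cells of WT and 88.1 in those of Bmx-CreER Wls and ratios of 1.87 (1.58 to 2.21) and 1.96 (1.66 to 2.3). Bnip3 (1.36 [1.27 to 1.45] and 1.51 [1.42 to 1.6]) and Aldoc (1.48 [1.22 to 1.8] and 1.85 [1.55 to 2.19]) had ratios above 1 in both libraries, and both passed 1.5-fold in Bmx-CreER Wls. All these ratios, of lower and of higher genes, are to the other chondrocyte-like clusters pooled. Against growth plate-like cells alone Aldoc was lower, at 71.4 against 109.8 CPM in WT and 78.1 against 93.7 in Bmx-CreER Wls. The intervals overlapped in Bmx-CreER Wls. Bnip3 was about level with growth plate-like cells in WT (546 against 535 CPM) and higher in Bmx-CreER Wls (612 against 499.9 CPM). Ndrg1 was lowest in growth plate-like cells, at 4.12 and 4.91 CPM against 7.7 and 8.41 in hypertrophic-like cells. Epas1 was lowest in growth plate-like cells of WT (5.03 against 7.27 CPM) but in hypertrophic-like cells of Bmx-CreER Wls. For Ankrd37 it was the reverse. The hypertrophic-like values of Ndrg1, Epas1 and Ankrd37 rested on 13 to 21 UMIs each. Ddit4 passed 1.5-fold in WT alone (1.66 [1.46 to 1.89] and 1.08 [0.954 to 1.21]). P4ha2 was higher in WT (1.49 [1.38 to 1.61]) and near even in Bmx-CreER Wls (1.07 [0.997 to 1.14]). Ldha was even, with ratios of 0.942 (0.891 to 0.994) and 0.998 (0.951 to 1.05). The targets of the hypoxia-inducible factors in this set therefore did not move together between chondrocyte clusters, in that Car9 and Egln3 were almost absent where Bnip3, P4ha2 and Car12 were at or near their highest.

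**Figure D3:**
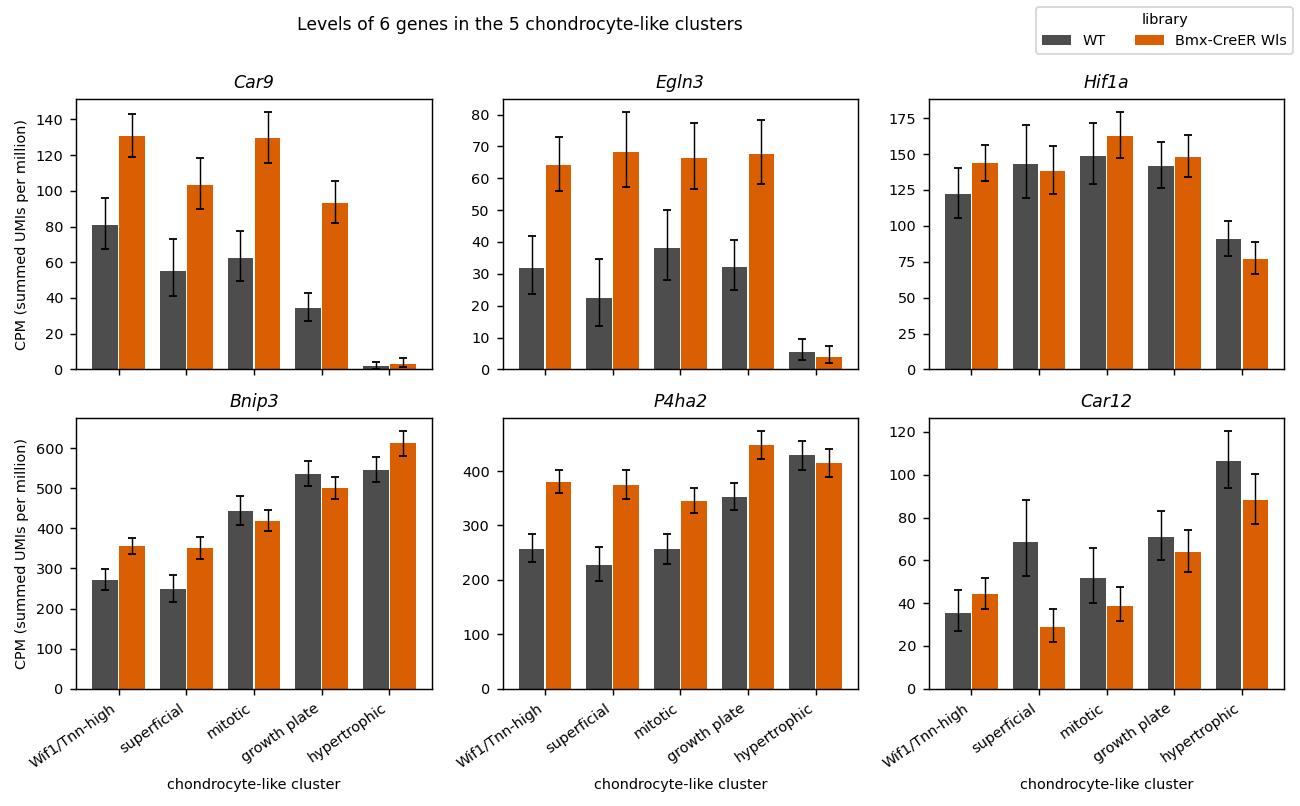
Level of Car9, Egln3, Hif1a, Bnip3, P4ha2 and Car12 in the 5 chondrocyte-like clusters, as CPM with 95% counting intervals, for the WT library (grey bars) and the Bmx-CreER Wls library (orange bars). Car9 and Egln3 fall to under 6 CPM in hypertrophic-like cells of both libraries, where Bnip3 and Car12 have their tallest bars.

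The libraries were then set side by side within each of the 15 clusters that had at least 50 cells in both. Wls, the targeted gene, read 42.1 (33.5 to 52.1) CPM (84 UMIs) in endothelial-like cells of WT and 23 (16.6 to 31.1) CPM (42 UMIs) in those of Bmx-CreER Wls. In the arterial-like subcluster it was 35.8 (16.4 to 68) CPM (9 UMIs) and 6.82 (0.826 to 24.6) CPM (2 UMIs), so that the direction went with the label, on few counts and with intervals that overlapped in the arterial-like cells. Most UMIs of Wls in endothelial-like cells lay outside the arterial-like subcluster in both libraries. Over all kept cells Wls read 135 CPM in WT and 112 in Bmx-CreER Wls. The source of these lower values was not tested. Over the 36 genes and 15 clusters, 369 pairs of gene and cluster had at least 50 UMIs, of which 46 (12.5%) were at least 1.5-fold higher in Bmx-CreER Wls and 21 (5.69%) were lower, where 5.82% and 5.11% of all pairs of genes and clusters were. The share that was lower was near the background.

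Most of the lower pairs came from Pgk1, lower in 7 of 9 clusters, and Eno1, lower in 7 of 14. These values cannot be taken as levels of the gene. All 1206 stretches of 50 bases in the annotated transcript of Pgk1-rs7, a processed pseudogene on chromosome 12, also occur in transcripts of Pgk1 on chromosome X, and 75.3% of those of Gm5506, a retrogene copy of Eno1 that the annotation calls Eno1b, occur in transcripts of Eno1. Over all kept cells Pgk1 had 1771 UMIs in WT and 1224 in Bmx-CreER Wls while Pgk1-rs7 had 321 and 636, and Eno1 had 5757 and 4630 while Gm5506 had 3899 and 6610. With gene and copy summed, the ratio of Bmx-CreER Wls to WT over all kept cells was 0.812 (0.762 to 0.865) for Pgk1 in place of 0.631, and 1.06 (1.03 to 1.09) for Eno1 in place of 0.734. Within clusters, the summed Pgk1 had ratios from 0.588 to 1.07, below 1 in 10 of 12 clusters with at least 50 UMIs. The summed Eno1 had ratios from 0.560 to 1.19, below 1 in 9 of 16 clusters and above 1 in 7. In growth plate-like cells the sums had ratios of 0.626 (0.544 to 0.720) for Pgk1 and 0.805 (0.756 to 0.857) for Eno1. Pgam1 and its pseudogene Pgam1-ps2 had the same opposed directions (63 and 37 UMIs against 70 and 102). How reads that match several genes were assigned is not given in the sources used here, and its part in these differences was not tested. With copies summed, 11 pairs in place of 21 were at least 1.5-fold lower.

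**Figure D4:**
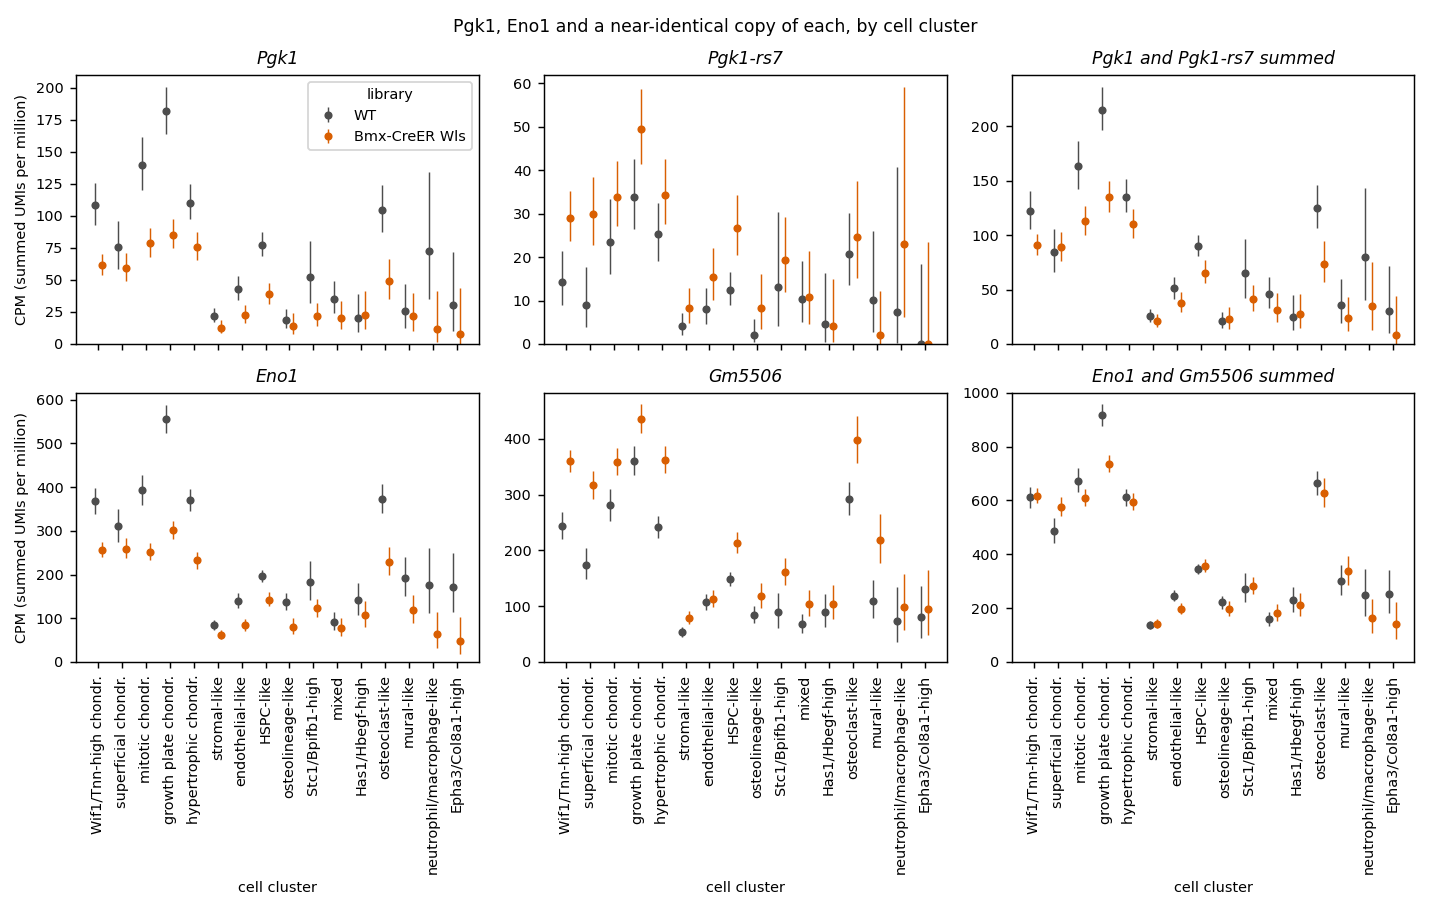
Level in CPM, with 95% counting intervals, of Pgk1, Pgk1-rs7 and their sum (top) and of Eno1, Gm5506 and their sum (bottom) in the 16 cell clusters of the WT library (grey) and the Bmx-CreER Wls library (orange). The orange points lie below the grey for Eno1 and above them for Gm5506 in nearly every cluster. The sums of Eno1 and Gm5506 lie closer together than either gene alone in many clusters, but not in growth plate-like or endothelial-like cells.

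The higher pairs were concentrated in Pfkl (7 of 13 clusters), Car9 (6 of 6), Mif (6 of 14), Slc16a3 (5 of 8) and Egln3 (5 of 8). The superficial chondrocyte-like cluster had the most, 10 of 32 genes, against 5.14% of 6572 genes. There Egln3 read 22.5 (13.8 to 34.8) CPM in WT and 68.4 (57.3 to 80.9) in Bmx-CreER Wls (ratio 3.03, 1.89 to 5.13), Aldoc 10.1 and 33.4 (ratio 3.3, 1.64 to 7.53), Slc2a1 69.8 and 140.3 (ratio 2.01, 1.52 to 2.69), Slc16a3 64.2 and 127 (ratio 1.98, 1.48 to 2.69) and Car9 55.2 and 103 (ratio 1.87, 1.36 to 2.61). Mif, Pfkl, P4ha2, Pkm and Ddit4 had ratios between 1.56 and 1.89. Car12 was the only gene at least 1.5-fold lower there, at 68.7 (52.6 to 88.3) CPM in WT and 28.9 (21.9 to 37.4) in Bmx-CreER Wls (ratio 0.42, 0.288 to 0.613), against 7.81% of all genes. The superficial-like cells of the Bmx-CreER Wls library also held more cartilage RNA: the 12 chondrocyte markers summed to 42580 CPM in WT and 58134 in Bmx-CreER Wls, a ratio of 1.37, with 2 of the 11 that had at least 50 UMIs past 1.5-fold, and the 6 superficial markers to 9995 and 8505 CPM. The median share of mitochondrial UMIs per cell was 3.52% in WT and 2.96% in Bmx-CreER Wls. The part of this cartilage RNA in the result was not tested.

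In the other chondrocyte-like clusters fewer genes were past 1.5-fold. The Wif1/Tnn-high cluster had 5 of 33 higher (4.79% of all genes), namely Aldoc, Egln3, Slc16a3, Car9 and Mif, and 2 lower (4.78%), Pgk1 and Epas1. The mitotic cluster had 6 of 31 (5.48%), led by Car9 (ratio 2.07, 1.62 to 2.68) and including Egln3 (1.74, 1.26 to 2.44), while the intervals of 2 of the 6, Pfkp and Epas1, reached below 1. The 2 lower genes of the mitotic cluster (4.59%) were Pgk1 and Eno1. In growth plate-like cells 2 of 30 genes were higher (5.30%), Car9 with 34.3 (27 to 43) CPM in WT and 93.3 (82.1 to 106) in Bmx-CreER Wls (ratio 2.72, 2.09 to 3.57) and Egln3 (ratio 2.11, 1.59 to 2.82), and 2 were lower (5.48%), Pgk1 and Eno1. The 12 chondrocyte markers had ratios of 1.01 in growth plate-like, 1.09 in Wif1/Tnn-high and 0.923 in mitotic chondrocyte-like cells. Other lists were less even. In growth plate-like cells the 7 hypertrophic markers summed to 590 CPM in WT and 360 in Bmx-CreER Wls (ratio 0.611). The 8 mitotic markers had a ratio of 0.681 there and the 6 superficial markers 1.76. The hypertrophic, mitotic and superficial lists had ratios of 0.947, 0.697 and 0.660 in Wif1/Tnn-high cells. In mitotic chondrocyte-like cells they had 0.889, 1.03 and 0.895. Their part in the values of Car9 and Egln3 was not tested. In hypertrophic-like cells, where Car9 and Egln3 were nearly absent from both libraries, 1 of 27 genes was higher (6.02%), Pfkl at 88.5 and 146 CPM (ratio 1.65, 1.39 to 1.97), and 1 was lower (4.62%), Eno1. The same 2 targets, Car9 and Egln3, thus had higher values in the Bmx-CreER Wls library in each of the 4 chondrocyte-like clusters that held them, with no overlap of intervals between libraries.

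Outside the chondrocyte-like clusters, stromal-like cells had 8 of 30 genes higher (7.50% of all genes), with Car12 at 24.9 (19.5 to 31.3) CPM in WT and 69.5 (58.9 to 81.4) in Bmx-CreER Wls (ratio 2.79, 2.1 to 3.74), Egln3 (2.32, 1.42 to 3.87), Pfkl (2.09, 1.42 to 3.09), Slc2a1 (2.0, 1.23 to 3.29) and Mif (1.97, 1.58 to 2.46) ahead of Slc16a3, Pkm and Tpi1, and 2 lower (4.03%), Pgk1 and Adm. The 12 chondrocyte markers summed to 2910 CPM in these cells of WT and 5020 in those of Bmx-CreER Wls, a ratio of 1.72, with 9 of 11 past 1.5-fold. In HSPC-like cells 1 of 29 genes was higher (5.18%), Car9 with 18 UMIs in WT and 32 in Bmx-CreER Wls (ratio 2.89, 1.57 to 5.46), and 1, Pgk1, was lower (2.74%). There the chondrocyte markers had a ratio of 2.14, with 10 of 11 past 1.5-fold. HSPC-like cells should hold no cartilage RNA, and its part in the reading of Car9 was not tested. In endothelial-like cells 0 of 28 genes were higher (3.65%) and 2, Pgk1 and Eno1, were lower (3.60%). Slc2a1 there read 56.1 (46.2 to 67.5) CPM in WT and 60.2 (49.5 to 72.6) in Bmx-CreER Wls, Ldha 339.9 and 318, and Epas1 279.9 and 349 (ratio 1.25, 1.11 to 1.4). These values are for all endothelial-like cells, of which the arterial-like subcluster held 74 in WT and 71 in Bmx-CreER Wls, and no ratio was computed for that subcluster alone. Osteolineage-like cells had 1 of 21 higher (5.20%, Kdm3a, ratio 1.86, 1.06 to 3.3) and 1 lower (5.07%, Eno1), and osteoclast-like cells 1 of 23 higher (5.31%, Pfkl) and 3 lower (4.92%), among them Kdm3a (ratio 0.642, 0.419 to 0.963). Mural-like cells had 3 of 17 higher (7.67%), Pfkl, Pfkp and Mif led by Pfkl (ratio 2.57, 1.46 to 4.75), and 2 lower (6.55%), Eno1 and P4ha1. In the Stc1/Bpifb1-high cluster 3 of 25 genes were higher (8.46%), Slc2a1, Car9 and Car12, and 1, Kdm3a, was lower (7.87%), while its 12 chondrocyte markers had a ratio of 1.35. The Has1/Hbegf-high cluster had 2 of 18 higher (5.04%), Slc16a3 and Mif, and 1 lower (5.99%), Hk1. Of 19 genes in the mixed cluster 2 were higher (7.43%), Pfkl and Mif, and 0 lower (6.43%), and of 6 in neutrophil/macrophage-like cells 1 was higher (11.6%), Gpi1, with an interval that reached below 1, and 0 lower (8.74%).

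**Figure D5:**
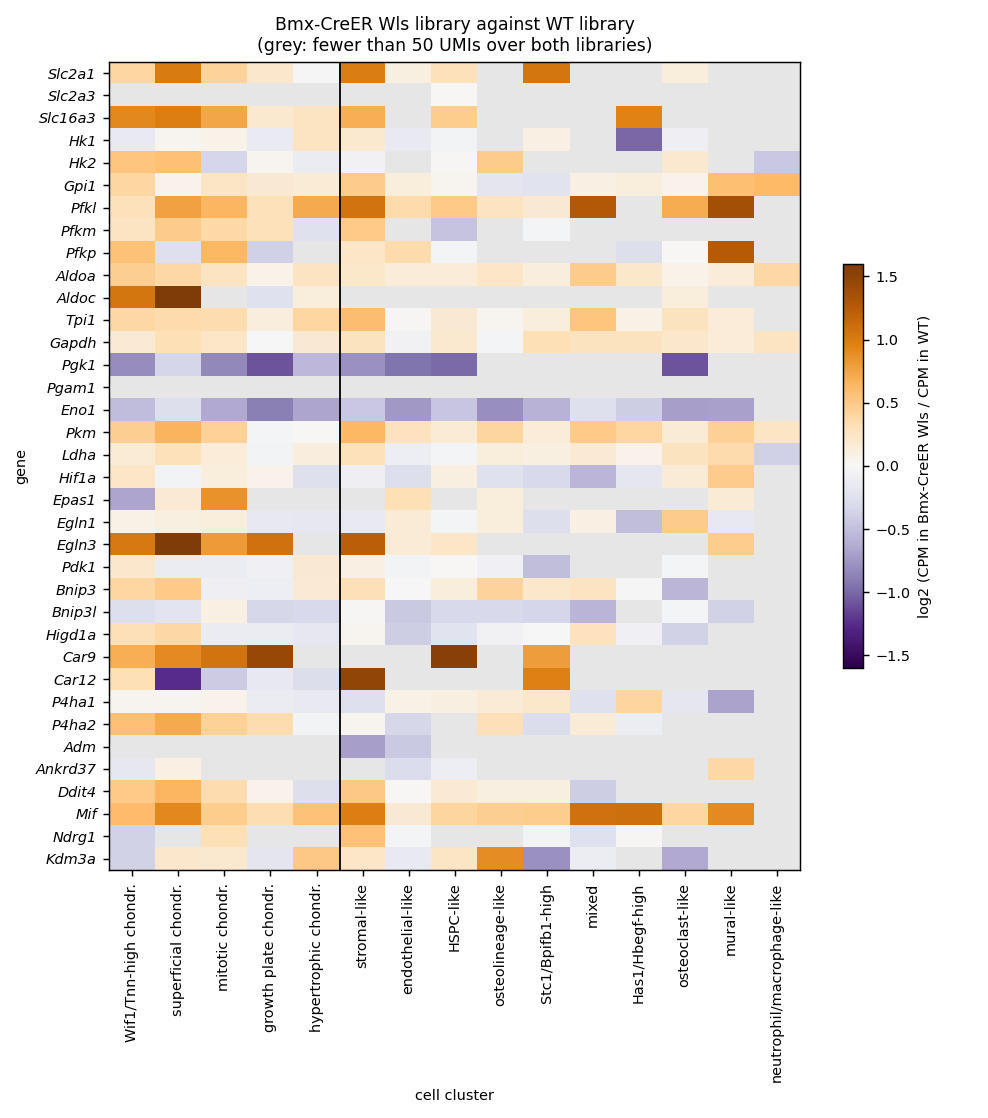
Ratio of the Bmx-CreER Wls library to the WT library for each gene (rows) in the 15 clusters compared (columns), as log2 of the ratio of CPM. Grey fields had fewer than 50 UMIs, and the 5 columns left of the line are chondrocyte-like. The orange fields gather in the superficial chondrocyte-like and stromal-like columns and in the rows of Pfkl, Car9, Egln3, Slc16a3 and Mif, and the purple ones in the rows of Pgk1 and Eno1.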

How the data were processed

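Lineage-depleted femur cells of E18.5 embryos were profiled as 2 single-cell libraries, 1 WT and 1 Bmx-CreER Wls. Per the submitters' processing notes and the study's methods, the authors extracted barcodes with UMI-tools 1.0.1, aligned reads to mm10 with STAR 2.7.1a and assigned them to genes with featureCounts 1.6.4. The deposited values are UMI counts per gene and cell barcode with no normalization. The annotation used for counting and the treatment of reads that match several genes are not given in the sources used here.

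A barcode was kept if the number of its genes lay between 200 and 5000 and its mitochondrial share was under 30%. Counts of both libraries were scaled to 10000 per cell, log-transformed and clustered together with scanpy 1.11.5 and leidenalg 0.10.2 on 1996 variable genes (11 principal components, 20 neighbours, resolution 0.5). 100 cell cycle genes and 127 genes of the set and of related pathways were left out of the clustering. Endothelial, HSPC and osteolineage clusters were divided again at resolution 0.3, a value chosen after seeing the data. Clusters were called "like" a cell type from marker lists. The doublet caller Scrublet marked 38 cells of WT and 0 of Bmx-CreER Wls, which does not count as working, so doublets were kept and the 5% of cells with the highest score were left out as an alternative.

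UMIs were summed per cluster and library and divided by the total of all genes (CPM). Intervals are exact Poisson for levels, exact binomial for shares and exact conditional binomial for ratios, at 95%, computed with scipy 1.17.1. A gene entered a ratio with at least 50 UMIs over both sides, and was counted as higher or lower past 1.5-fold. The interval code was tested on simulated data. For shares of cells, each cell was also thinned to 1000 UMIs, which left out 280 shallower cells. With 1 library per group no test was made. The 36 genes, the pathway lists and the marker lists were chosen with earlier results of these data known. All 36 genes are described. Of the pathway lists, the 3 genes with the highest and the 3 with the lowest ratio of chondrocyte-like to other cells in the WT library were named. Alternatives were other clusterings, filters, totals and weights, the authors' published cell labels for WT cells, and 4 settings added after seeing the data.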

Additional observations from a re-analysis of the deposited data

Results flagged for a closer look

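Car12 and Kdm3a differed between the libraries by at least 1.5-fold in opposite directions in different clusters, with intervals clear of 1 in both directions, and the differences between clusters were not tested. Epas1 also passed 1.5-fold in both directions, with a ratio of 0.63 in Wif1/Tnn-high and 1.82 in mitotic chondrocyte-like cells, but the interval of the latter reached below 1. Car12 had a ratio of Bmx-CreER Wls to WT of 2.79 in stromal-like cells and 1.95 in the Stc1/Bpifb1-high cluster, but of 0.420 in superficial chondrocyte-like cells. Kdm3a had a ratio of 1.86 in osteolineage-like and of 0.642 in osteoclast-like cells. The summed chondrocyte markers had ratios of 1.72 in stromal-like, 1.35 in Stc1/Bpifb1-high, 1.37 in superficial chondrocyte-like, 1.52 in osteolineage-like and 0.465 in osteoclast-like cells, and their part in these ratios was not tested.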

How the results depend on the processing

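In all, 145 values were recomputed for 13 results under 13 settings. The count of genes highest in a chondrocyte-like cluster ranged from 16 to 24 in WT and from 15 to 21 in Bmx-CreER Wls. The 16 came from the authors' labels, which have a single chondrocyte class, so it is not counted over the same clusters. The share over all genes was not computed for these alternatives. Pairs of gene and cluster higher in Bmx-CreER Wls ranged from 43 to 54, and genes higher in superficial chondrocyte-like cells from 7 to 13. The ratio of summed enzymes in chondrocyte-like to other cells was above 1 under each setting. In WT it moved to 1.48 with the set and pathway genes kept in the clustering, 1.47 with a stricter cell filter, 1.64 as a mean over cells, 1.40 with the authors' cell labels (953 chondrocytes among 1999 labelled WT cells) and, in settings added after seeing the data, 1.69 without the 50 most abundant genes in the total, 1.46 with copies summed and 1.46 without mitotic chondrocyte-like cells. In Bmx-CreER Wls the values were 1.48 with those genes kept, 1.61 as a mean over cells, 1.71 without the 50 genes, 1.51 with copies summed and 1.49 without mitotic cells. The ratio of summed hypoxia genes moved in WT to 2.77 as a mean over cells, 3.05 without likely doublets, 3.04 with the authors' labels and 3.5 without the 50 genes, and in Bmx-CreER Wls to 2.73, 2.88 and 3.30 for the first, second and last of these. The count of genes higher in hypertrophic-like cells of WT, 2 in the report, was 4 with the set kept in the clustering, 1 at resolution 1.0, 5 with 30 principal components, 6 with the stricter filter, 5 with each library clustered alone and 4 without the 50 genes. Pairs lower in Bmx-CreER Wls numbered 21, and 11 with copies summed, since both Pgk1 and Eno1 are then added to their copies. The cause of the other changes was not tested.

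No paired analysis was possible because each group is 1 library. Leaving out a replicate would leave no group. The authors' labels were used for WT cells only, and the Epha3/Col8a1-high cluster was too small for a comparison between libraries. Pairs under 50 UMIs were not compared.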

Other observations

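In the F13a1/Col10a1-high osteolineage subcluster Ddit4 read 549.9 CPM in WT and 529 CPM in Bmx-CreER Wls, as a description of a small subcluster. Slc2a3 read 109 and 79.7 CPM in megakaryocyte progenitor-like cells and 75.1 and 78.6 CPM in multipotent HSPC-like cells. Epas1 read 103 and 145 CPM in Cxcl12-rich and 11.8 and 3.80 CPM in Ibsp/Ifitm5-high osteolineage-like cells, with the higher value in the Cxcl12-rich cells of both libraries.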
